A study of Mus musculus with 31 samples.

Results

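The alpha and beta crystallins, the water-soluble proteins that fill the lens, are described here in eyes of Ftx KO and wild-type (WT) mouse embryos. The members are 8 of the 34832 genes named on the array, Cryaa, Cryab, Cryba1, Cryba2, Cryba4, Crybb1, Crybb2 and Crybb3, taken with every probe that carries their name and is not a control, which gave 13 of the 55681 probes. The 11 probes of 7 of these genes reached a mean signal above 500 in WT females and were tested among 14052 probes in all. Both probes of Crybb2 stayed below that signal and are described apart.

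RNA of single eyes at embryonic day 13.5 was measured on 31 1-colour Agilent arrays. The groups were WT females (3 eyes, numbered 1, 2 and 4), WT males (3 eyes), Ftx KO males, which are hemizygous (Ftx-/Y, 3 eyes), and Ftx KO females, which are homozygous (Ftx-/-, 11 eyes with 2 arrays each). All groups were C57BL/6N mice, all eyes had their pigmented epithelium layer taken off by dissection, and the mutant eyes were of the normal-looking class. The targeted allele makes no Ftx, a non-coding RNA of the X-inactivation centre, nor the microRNAs carried in one of its introns, so both sexes of the mutants lack these too.

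Crystallins keep the lens clear and give it its refractive index. The alpha crystallins, Cryaa and Cryab, are small heat shock proteins that hold unfolding proteins in solution. The beta crystallins are built from Greek key motifs and fall into acidic members (Cryba1, Cryba2 and Cryba4) and basic members (Crybb1, Crybb2 and Crybb3). At the stage studied the primary fibres of the lens have elongated and express crystallins strongly, while Crybb2 is known as a late member of the family. Whole eyes contain lens, neural retina, cornea and surrounding mesenchyme, so each value below is a level in the RNA of the whole dissected eye.

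The probes read short stretches of these transcripts, and the sequences of 4 beta crystallin probes are shown because they carry the same short pattern. The capitals mark AACTTNNNNGG, where N is any base, read on the probe strand only. The pattern was read off the member probes themselves, as the bases shared by every stretch that begins with AACTT. It was in 6 of the 13 member probes, from 4 genes, and in 185 of all 55681 probes (0.332%). The shorter pattern TTNNNNGG, which lies within it, was in 8 of the 13 and in 17.1% of all probes.
Cryba1 A_51_P113026: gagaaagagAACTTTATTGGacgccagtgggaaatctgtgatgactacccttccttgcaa
Cryba2 A_51_P480136: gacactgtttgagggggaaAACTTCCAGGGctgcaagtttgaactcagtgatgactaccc
Crybb1 A_55_P2136730: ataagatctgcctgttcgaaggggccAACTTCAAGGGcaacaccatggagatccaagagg
Crybb2 A_55_P2082376: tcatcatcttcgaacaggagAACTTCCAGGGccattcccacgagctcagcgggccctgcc
By the positions in the files (mm9), these probes lie at chr11:77532943-77533002 on the minus strand (Cryba1), chr1:74937168-74937227 on the minus strand (Cryba2), chr5:112696348-112696407 on the plus strand (Crybb1) and chr5:113494972-113495031 on the minus strand (Crybb2). The second probe of Crybb1, A_51_P334063, spans chr5:112692655-112696385 and shares bases with the first, so these 2 probes are not independent. No gene models of this build were used, so exons and untranslated regions are not assigned.

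Among 73 pairs of probes from different member genes, set side by side over at least 40 bases, the pair most alike was the second probe of Crybb2 with the probe of Crybb3. In these sequences the capitals mark the 46 of 58 overlapping bases that are identical (79.3%).
Crybb2 A_55_P2153404: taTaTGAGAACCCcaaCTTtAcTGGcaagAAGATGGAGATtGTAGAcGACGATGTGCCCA
Crybb3 A_55_P1983921: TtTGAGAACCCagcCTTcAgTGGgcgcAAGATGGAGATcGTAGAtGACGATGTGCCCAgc
The Crybb2 probe lies at chr5:113491125-113491184 and the Crybb3 probe at chr5:113506611-113506670, both on the minus strand of mm9. The next pair, of Cryba1 and Cryba2, was identical at 70.0% of its overlap, and the median over the 73 pairs was 40%. How far such likeness enters the signal of a probe was not tested.

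Promoters of 7 members were found in the RefSeq table of GRCm38.p6, in windows of 300 bases around the start. The heptamer TGCTGAC, the core of the element that large Maf factors recognise, or its reverse complement was in 4 of the 7 windows and in 1535 of 32851 windows of all genes (4.67%). The hexamer TATAAA, on either strand, was in 3 of the 7 and in 13.6% of all. The 4 windows with TGCTGAC are shown over the 150 bases before the start, with both motifs in capitals, since they hold a match of the rarer motif.
Cryaa: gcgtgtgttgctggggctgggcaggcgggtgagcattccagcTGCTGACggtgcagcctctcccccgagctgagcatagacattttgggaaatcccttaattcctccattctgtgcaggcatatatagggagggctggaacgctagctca
Cryba1: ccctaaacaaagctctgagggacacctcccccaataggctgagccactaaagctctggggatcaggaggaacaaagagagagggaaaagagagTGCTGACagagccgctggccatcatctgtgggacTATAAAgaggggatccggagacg
Cryba4: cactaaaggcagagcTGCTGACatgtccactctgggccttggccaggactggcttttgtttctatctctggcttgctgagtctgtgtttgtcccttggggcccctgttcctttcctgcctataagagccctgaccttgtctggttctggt
Crybb1: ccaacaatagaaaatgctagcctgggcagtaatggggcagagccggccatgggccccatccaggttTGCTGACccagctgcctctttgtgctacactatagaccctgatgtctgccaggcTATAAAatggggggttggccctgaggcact
The stretches lie at chr17:31677781-31677930 on the plus strand (Cryaa), chr11:77725294-77725443 on the minus strand (Cryba1), chr5:112252519-112252668 on the minus strand (Cryba4) and chr5:112255670-112255819 on the plus strand (Crybb1). The first base of TGCTGAC is 108 bases before the start in Cryaa, 57 in Cryba1, 84 in Crybb1 and 135 in Cryba4, and the Cryba4 window holds another copy 182 bases before it. A match of letters is a description of the sequence, and binding was not measured.

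The labels were checked on Ftx and Xist first. The Ftx signal (A_55_P2175002) stood well above background on every WT array of both sexes, 3 each, on 0 of 3 Ftx KO male arrays and on 9 of 22 Ftx KO female arrays, with values of 50.1 to 134 in WT females and 8.24 to 37.4 in Ftx KO females. A dimmer Ftx probe, A_55_P2175007, was above background on 2 of 3 WT female arrays, 0 of 3 WT male, 0 of 3 Ftx KO male and 1 of 22 Ftx KO female arrays, and its WT male values, 13.8 to 22.1, overlapped those of Ftx KO females, 6.37 to 20.04. Xist, which marks cells with an inactive X, had signals from 674 to 1266 on all female arrays and from 6.87 to 7.55 on all male arrays. Every one of the 8 members was well above background on all 31 arrays by at least 1 probe, as were 10 of 12 lens fibre genes, 9 of 9 retinal progenitor and 10 of 10 retinal neuron markers. No spot was saturated. The arrays share 4 slides. Slide 1 held all WT eyes and Ftx KO male eye 1, slide 2 Ftx KO male eyes 2 and 3 with Ftx KO female eyes 1 to 3, slide 3 eyes 4 to 7 and slide 4 eyes 8 to 11. No slide held both WT and Ftx KO females. Slide 1 was scanned on day 1 and slides 2 to 4 on day 2. Scan day and genotype therefore cannot be told apart within females.

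In the first comparison, Ftx KO against WT females, 9 of the 11 tested probes were lower, from 6 genes, and none was higher. Over all 14052 tested probes 18.3% were lower and 16.8% higher by the same rule, an adjusted p under 0.05 with limma. The 9 probes stood at 54.5% to 83.2% of the WT female level (median 66.8%), and the median log2 fold change of the 11 was -0.55, beside -0.01 over all probes. All comparisons of genotype in RNA of whole eyes share a limit, since fewer lens cells and less crystallin RNA in each lens cell cannot be told apart. The count was 5 of 11 without WT female eye 4, which was the highest WT female eye for every probe tested but Cryaa A_55_P2007646. With the slide as a term it was 0 of 11, with a median log2 fold change of -0.66, and the estimate then rests on the 3 Ftx KO male eyes that link slides 1 and 2, because slide and genotype cannot be told apart within females.

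Cryab, which is made outside the lens as well as in it, had the largest change of the members tested. Its probe A_55_P1964408 had log2 signals of 15.34, 15.33 and 15.77 in the WT female eyes and 14.20 to 14.96 (median 14.61) in the 11 Ftx KO female eyes. The same probe gave 15.34, 15.53 and 15.25 in WT males and 15.09, 15.29 and 15.30 in Ftx KO males. All 11 Ftx KO female eyes thus lay below every eye of the other groups. The log2 fold change between females was -0.87 ± 0.13 (SE, limma, adjusted p = 9.56e-05), or 54.5% of the WT level. For the second probe, A_55_P2007656, the values were 12.32, 12.04 and 12.79 in WT females against 11.48 to 12.06 (median 11.62) in Ftx KO females. Here 10 of the 11 eyes were below the lowest WT female eye, and eye 3 overlapped with it. The change was -0.71 ± 0.12 (limma, adjusted p = 4.02e-04).

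The 2 probes of Cryaa, the alpha crystallin that is largely confined to the lens, disagreed. A_55_P2007645 had log2 signals of 14.24, 13.94 and 14.53 in WT females and 13.17 to 14.03 (median 13.35) in Ftx KO females. Only Ftx KO female eye 3 reached the WT range, and the log2 fold change was -0.81 ± 0.16 (limma, adjusted p = 0.00111). A_55_P2007646 gave 18.57, 18.29 and 18.29 in WT females and 18.32 to 18.55 (median 18.45) in Ftx KO females, so the groups overlapped. Its change was 0.06 ± 0.07 (limma, adjusted p = 0.541), with a 95% confidence interval from -0.09 to 0.21, and -0.13 when the arrays were scaled to their 75th percentile. This probe ranked between 1 and 10 in brightness among all probes of each array and was the brightest on 3 arrays. The probe positions are chr17:31815402-31815461 for the first and chr17:31818550-31818609 for the second, both on the plus strand of mm9, and which transcripts each one reads was not assigned.

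**Figure D1:**
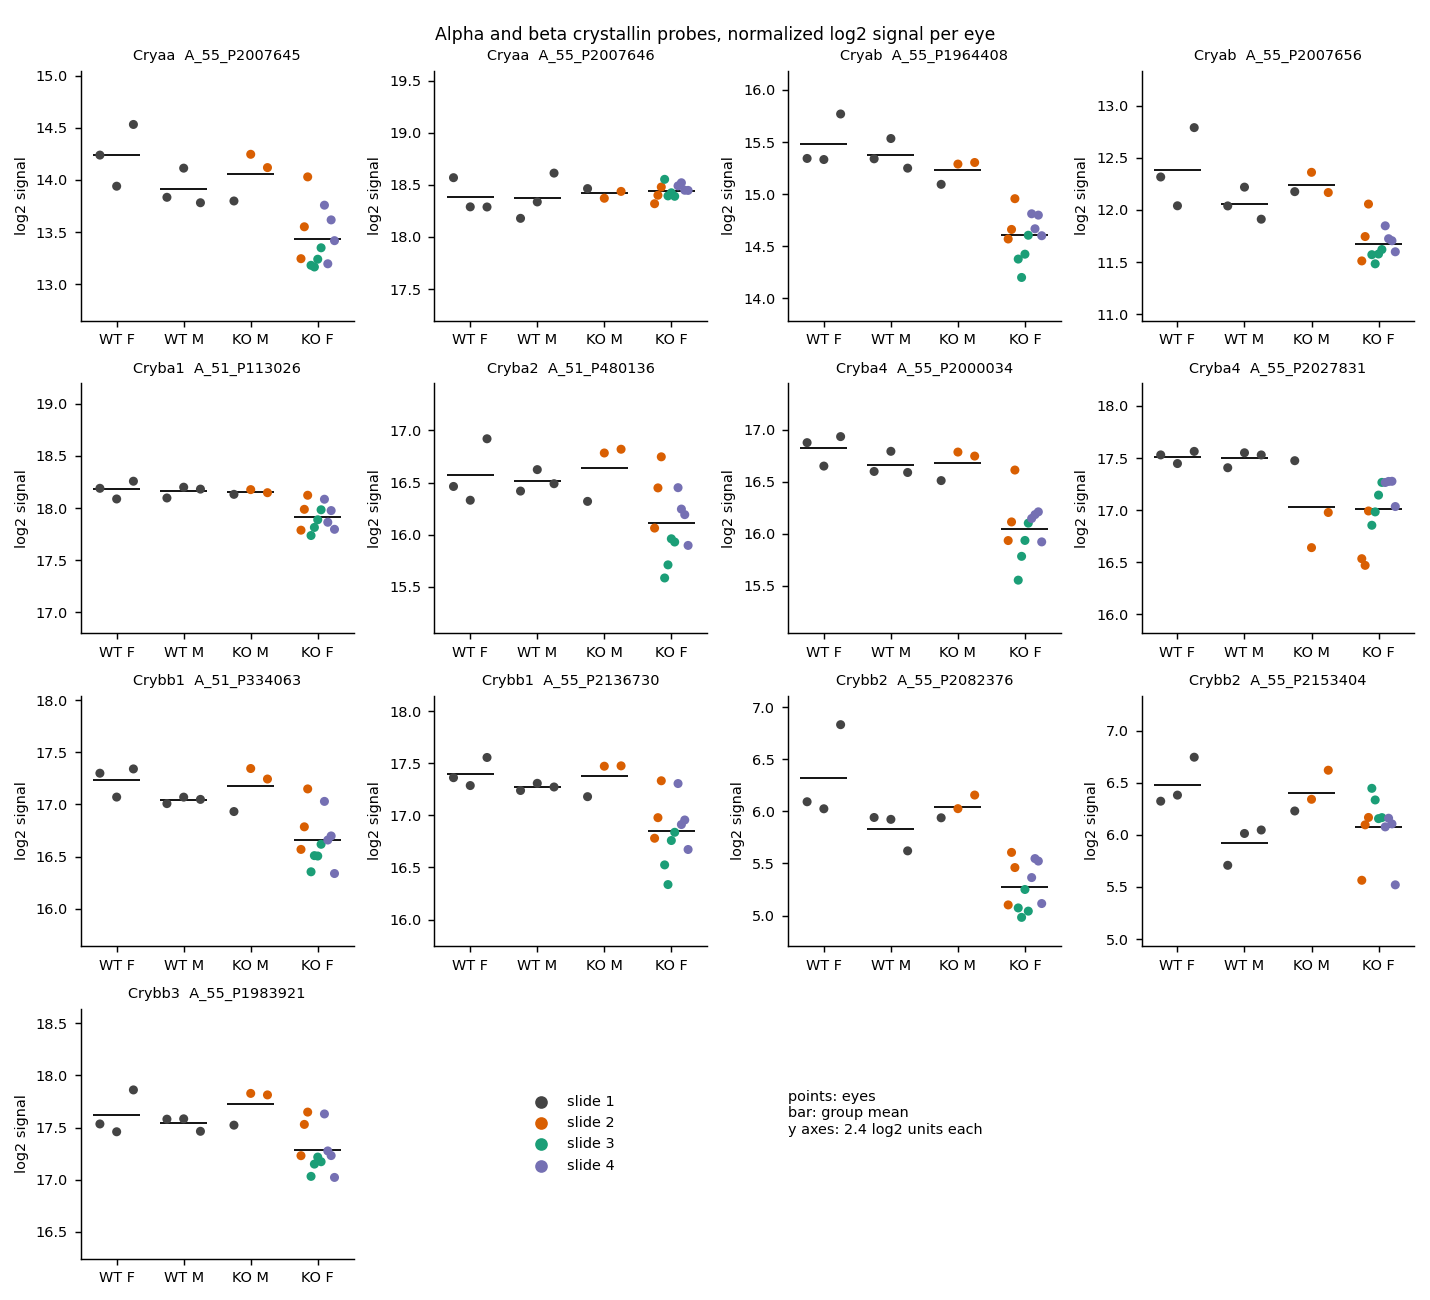
Normalized log2 signal (y axes) of the 13 member probes in each eye by group, with WT F, WT M, KO M and KO F for WT and Ftx KO females and males, a point for each eye coloured by slide and a bar at the group mean. Each y axis spans the same number of log2 units, and the 11 Ftx KO female eyes of Cryab A_55_P1964408 lie between 14.20 and 14.96, below all other eyes.

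Among the acidic beta crystallins, Cryba4 had the largest change. Its probe A_55_P2000034 had log2 signals of 16.87, 16.65 and 16.93 in WT females and 15.56 to 16.61 (median 16.10) in Ftx KO females. All 11 Ftx KO eyes were below the lowest WT female eye, and the log2 fold change was -0.77 ± 0.14 (limma, adjusted p = 5.44e-04). The other Cryba4 probe, A_55_P2027831, went from 17.53, 17.45 and 17.56 in WT females to 16.47 to 17.28 (median 17.03) in Ftx KO females, with no overlap. Its change was -0.50 ± 0.17 (limma, adjusted p = 0.0251). Unlike the first probe, this one was also low in the Ftx KO male eyes that shared slide 2 with the females, at 16.64 and 16.98, and at 17.47 in Ftx KO male eye 1 on slide 1. With scan day as a term its fold change in females turned to 0.16, which rests on the Ftx KO male eyes that link the scan days.

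Cryba1, whose mutation causes inherited cataract in humans, is covered by 10 spots on each array, which makes it the member with the most readings per eye. The SD among its spots on an array was 0.041 to 0.118 (median 0.074) on the log2 scale. The averaged log2 signals were 18.19, 18.09 and 18.26 in WT females and 17.74 to 18.12 (median 17.89) in Ftx KO females. The change was the smallest of those called, -0.27 ± 0.07 (limma, adjusted p = 0.00725), with 10 of 11 eyes below the lowest WT female eye. Cryba2, measured by 1 probe, had 16.46, 16.33 and 16.92 in WT females and 15.58 to 16.75 (median 16.06) in Ftx KO females. Its groups overlapped, 8 of 11 eyes were below the lowest WT eye, and the change of -0.46 ± 0.19 missed the threshold (limma, adjusted p = 0.0671), with an interval from -0.86 to -0.06. Cryba2 was called in 4 of 41 alternative settings. These were 75th percentile scaling, at -0.56 (limma, adjusted p = 0.0151, the lowest of the 41, which ran up to 0.347), the fit without Ftx KO female eye 3 or eye 8 (limma, adjusted p = 0.0215 and 0.0494), and the methods' fold and unadjusted p criteria.

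Among the basic beta crystallins, both probes of Crybb1, a lens fibre protein, were lower. A_51_P334063 had log2 signals of 17.30, 17.07 and 17.34 in WT females and 16.34 to 17.15 (median 16.62) in Ftx KO females, a change of -0.58 ± 0.14 (limma, adjusted p = 0.0032). A_55_P2136730 had 17.36, 17.29 and 17.55 against 16.34 to 17.33 (median 16.84), a change of -0.55 ± 0.15 (limma, adjusted p = 0.00937). Of the 11 eyes, 10 were below the lowest WT female eye by the first probe and 9 by the second, and eye 3 was above it by both. Crybb3 had 17.53, 17.46 and 17.86 in WT females and 17.02 to 17.65 (median 17.23) in Ftx KO females. Eyes of the 2 groups overlapped, with 8 of 11 below the lowest WT eye, and the change of -0.33 ± 0.12 was close to the threshold (limma, adjusted p = 0.0436). It missed the threshold in 23 of 41 alternative settings.

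Crybb2, the late member, was dim, and its probes entered a fit over all 55681 probes in place of the tested ones. Probe A_55_P2082376 had log2 signals of 6.09, 6.02 and 6.83 in WT females and 4.98 to 5.61 (median 5.25) in Ftx KO females, with no overlap. The change was -1.04 (limma, adjusted p = 0.00157), and the probe was well above background on 19 of 22 Ftx KO female arrays and on all others. Probe A_55_P2153404, the one like Crybb3, had 6.32, 6.38 and 6.74 against 5.52 to 6.45 (median 6.16), a change of -0.41 that missed the threshold (limma, adjusted p = 0.147). It was well above background on all 31 arrays.

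All 11 Ftx KO female eyes were below the lowest WT female eye for 3 of the 11 tested probes, and 11.4% of all tested probes had that pattern. The 3 were the Cryab probe A_55_P1964408 and both probes of Cryba4. For 7 of the 11, at least 10 eyes were below, a looser pattern whose share among all tested probes was not counted. The 2 arrays of a Ftx KO female eye differed by a median of 0.02 to 0.08 on the log2 scale over these probes, and the SD between eyes was 1.22 to 6.21 times the SD of 1 array (median 3.93), lowest for Cryaa A_55_P2007646.

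In males, Ftx KO against WT, 0 of the 11 probes passed the threshold with limma, beside 0.00712% of all tested probes lower and 0.0142% higher. The log2 fold changes ran from -0.46 to 0.18 with a median of 0.10, at adjusted p from 0.393 to 0.983. At an unadjusted p under 0.05 there was 1 lower probe, against 5.27% of all, and it was the Cryba4 probe A_55_P2027831 (-0.46 ± 0.21, limma, adjusted p = 0.393). Its log2 signals were 17.41, 17.55 and 17.53 in WT males and 17.47, 16.64 and 16.98 in Ftx KO males. For the other Cryba4 probe the WT males had 16.60, 16.79 and 16.59 and the Ftx KO males 16.51, 16.78 and 16.75, which overlap, with an interval of the change from -0.35 to 0.39. For Cryab A_55_P2007656 the values were 12.04, 12.22 and 11.91 in WT males and 12.18, 12.36 and 12.17 in Ftx KO males, with a change of 0.18 ± 0.15 (limma, adjusted p = 0.687). With 3 eyes a group the SE in males was 0.09 to 0.24, against 0.07 to 0.19 in females, and the 95% interval in males held the female estimate for Cryaa A_55_P2007646 and Cryba4 A_55_P2027831 and lay above it for the others. The 2 Crybb2 probes changed by 0.21 and 0.47 in males (limma, adjusted p = 0.79 and 0.404).

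**Figure D2:**
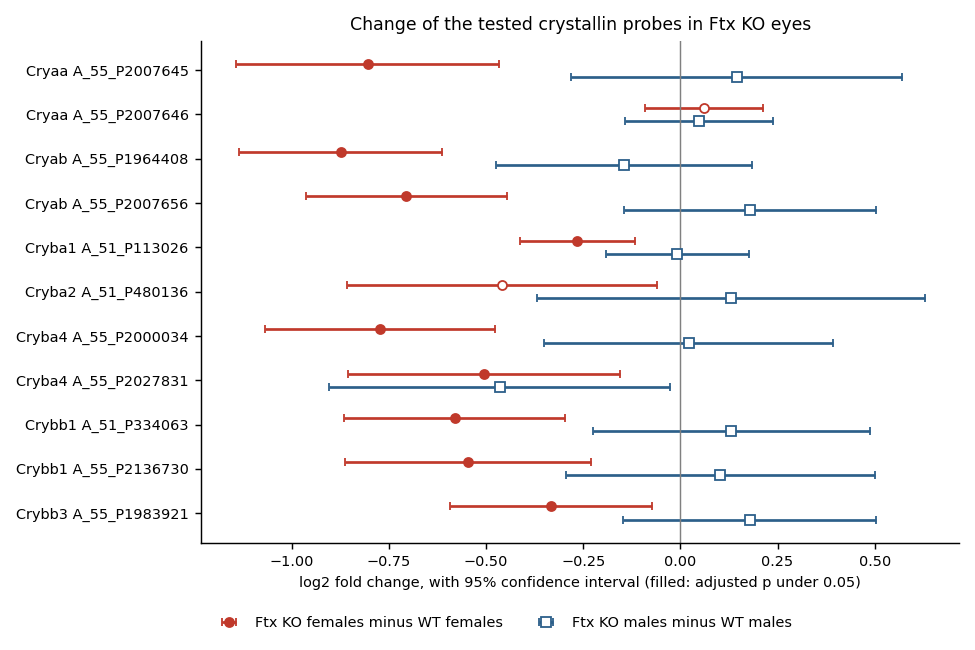
Log2 fold change (x axis) of each tested member probe with its 95% confidence interval from limma, in Ftx KO against WT females (circles) and in Ftx KO against WT males (squares), filled where the adjusted p was under 0.05. In females 9 of 11 are filled and lie between -0.87 and -0.27, and in males none is filled.

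The difference between the effect in females and the effect in males was tested directly. The estimate was below 0 for 10 of 11 probes, from -0.95 to 0.01 with a median of -0.65. None passed the threshold (limma, adjusted p 0.148 to 0.972), nor did any of the 14052 probes tested (0%), while 8 of the 11 had an unadjusted p under 0.05 in the lower direction, beside 8.26% of all. The smallest adjusted p belonged to Cryab A_55_P2007656, at -0.88 ± 0.20 (limma, adjusted p = 0.148). An effect that differs between the sexes was therefore not established for any single member by this test. Between WT females and WT males 0 of 11 probes were called (limma, adjusted p 0.484 to 0.995), with 1 higher at an unadjusted p under 0.05 (5.35% of all) and estimates from 0.01 to 0.33, while 0.0569% of all probes were higher and 0.0142% lower.

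Among the mutants, females were compared with males. Of the 11 probes 3 were lower in Ftx KO females, beside 1.44% of all tested probes lower and 0.534% higher, and 9 had an unadjusted p under 0.05 beside 9.58% lower in all. The 3 were both Cryab probes, at -0.62 ± 0.13 and -0.56 ± 0.12 (limma, adjusted p = 0.0195 and 0.0284), and Cryba4 A_55_P2000034, at -0.63 ± 0.14 (limma, adjusted p = 0.0285). All 11 female eyes were below the lowest male eye for both Cryab probes and Cryba1, a pattern of 2.75% of all, and 10 were for Cryba4 A_55_P2000034. The count depended on single eyes, as it was 0 without any 1 of the 3 Ftx KO male eyes, 8 without Ftx KO female eye 3 and 7 without eye 8. With the slide as a term it was 0. By the criteria of the study's methods (fold below 0.8 and an unadjusted p under 0.05, here from limma) the probes lower were 9 in females (13.2% of all), 1 in males (2.07%), 7 for the difference (5.77%), 0 between WT sexes (1.27%) and 8 between mutant sexes (4.15%).

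Slide 2 held both sexes of the mutants, with 3 female and 2 male eyes. On it the log2 difference between females and males ran from -0.57 to -0.005 with a median of -0.44. All 3 females were below both males for 9 of 11 probes, and for 17.5% of all tested probes. None passed the threshold in a fit of these 5 eyes (limma, adjusted p 0.372 to 0.982), and 6 had an unadjusted p under 0.05, beside 7.13% lower in all. For Cryab A_55_P1964408 the mean was 14.73 in the females and 15.30 in the males of this slide. Against WT females, the Ftx KO female eyes of slide 2 had a median log2 difference of -0.40 over the 11 probes, those of slide 3 -0.77 and those of slide 4 -0.44.

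The members moved together from eye to eye. Over all 20 eyes the correlation between 2 of the 11 probes had a median of 0.88 in 55 pairs. The low values, down to -0.28, came from Cryaa A_55_P2007646 and Cryba4 A_55_P2027831, and the other 9 probes correlated at 0.81 to 0.95 (36 pairs, median 0.92). Within the 11 Ftx KO females these 9 correlated at 0.70 to 0.96 (median 0.86). The eyes share slides, a dissection and a normalization, and the 20 eyes hold the group difference as well, so these values describe the set.

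A profile was made as the mean over the 8 genes of the log2 signal of the brightest probe, relative to the WT female mean. The brightest probes include Cryaa A_55_P2007646 and Cryba4 A_55_P2027831, which differ from the other probe of their gene. The profile was -0.13 to 0.17 in WT females, -0.21 to -0.06 in WT males, -0.15 to -0.004 in Ftx KO males and -0.60 to -0.15 in Ftx KO females, with a median of -0.41. Ftx KO female eyes 3 and 8 were the highest of their group, at -0.15 and -0.19, inside the range of WT males, and eyes 1, 5, 11 and 4 were the lowest, between -0.60 and -0.56. With the mean of all probes of a gene in place of the brightest, the Ftx KO female median was -0.55 and the WT male range -0.22 to -0.08, with eye 3 inside it at -0.17 and eye 8 below it at -0.28. The SD of the profile was 0.16 among the 11 Ftx KO female eyes, 0.15 in WT females, 0.077 in WT males and 0.074 in Ftx KO males. The last 3 values rest on 3 eyes each. The profile differed between Ftx KO female eyes on each slide, from -0.60 to -0.15 on slide 2, -0.59 to -0.41 on slide 3 and -0.58 to -0.19 on slide 4.

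**Figure D3:**
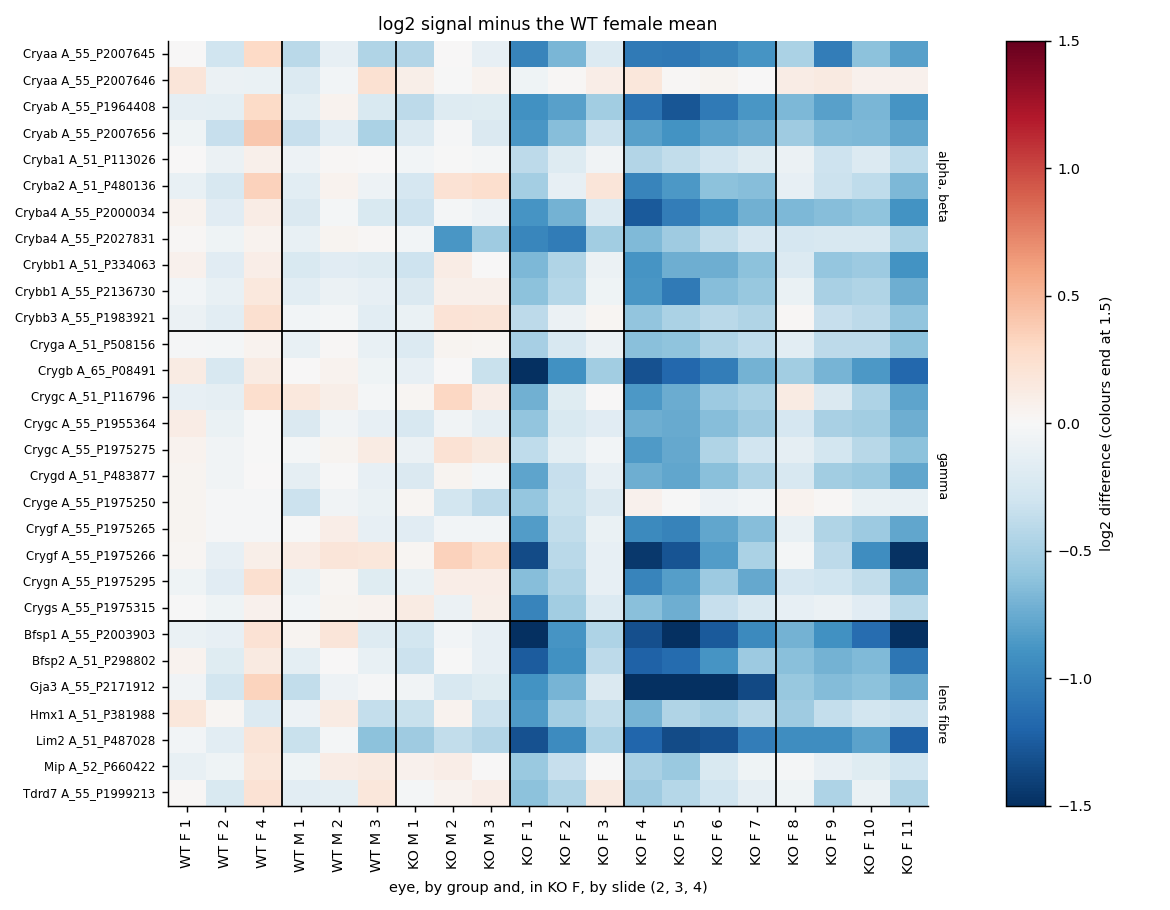
Log2 signal minus the WT female mean (colour, ending at 1.5) of the tested probes of the alpha and beta crystallins, the gamma crystallins and 7 of the 8 tested lens fibre genes (rows) in each of the 20 eyes (columns, ordered by group and, in Ftx KO females, by slide). Ftx KO female eyes 1, 4, 5 and 11 are dark blue across most rows and eyes 3 and 8 are pale.

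The other crystallins and lens genes were read in the same fit. Over all tested probes in females 18.3% were lower and 16.8% higher. Of the gamma crystallins, the fibre crystallins that pack most densely, 9 of 11 probes were lower in Ftx KO females (median -0.51 on the log2 scale), and all 8 genes were tested. Crygb fell by 0.95 (limma, adjusted p = 4.51e-04), one probe of Crygf by 0.80 (adjusted p = 0.0238) and Crygn by 0.55 (adjusted p = 0.00663). Of the genes listed for lens fibres 6 of 8 tested probes were lower (median -0.94, 8 of 12 genes tested). They included the beaded filament gene Bfsp1 at -1.11 (limma, adjusted p = 2.56e-04) and the membrane protein gene Lim2 at -1.04 (adjusted p = 1.00e-04). One of the 6 was Hmx1, a homeobox transcription factor and no structural protein of fibres, at -0.48 (limma, adjusted p = 0.00425). In males 0 probes of either list were called by limma, beside 0.00712% of all tested probes lower and 0.0142% higher. At an unadjusted p under 0.05 there were 0, beside 11.8% of all. Both counts in females were 0 with the slide as a term, where 10 probes were called lower among all and the medians were -0.51 and -0.91, and the gamma count was 5 without WT female eye 4.

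Transcription factors that act on crystallin genes were read next. Of 15 probes for 12 genes 5 were lower and 1 was higher (limma), beside the 18.3% lower and 16.8% higher among all tested probes. The lower ones were Hsf4, a heat shock factor of the lens, at -0.99 (adjusted p = 9.02e-04), Foxe3, a forkhead factor of the lens epithelium, at -0.93 (adjusted p = 3.96e-04), the homeobox factor Prox1 at -0.84 (adjusted p = 0.00398), Sox1 at -0.69 and Pitx3 at -0.64. Sox2, which is also expressed in the neural retina, was higher by 0.37 (adjusted p = 7.38e-04). Pax6, Six3, Maf, Mafg and Tfap2a had no probe past the threshold. The 5 lower factors were estimated 0.09 (Sox1) to 0.59 (Foxe3) higher in WT females than in WT males. Between mutant females and mutant males their estimates ran from -0.72 (Prox1) to -0.27 (Pitx3), with Foxe3 at -0.30. None of the 5 passed the threshold in either comparison. None of the 15 was called in males, beside 0.00712% of all tested probes lower and 0.0142% higher.

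Relatives by name or family came after these. Among small heat shock proteins 1 of 3 tested probes was lower. It was Hspb2, which lies next to Cryab in the genome, with all 11 Ftx KO female eyes below the lowest WT female eye, at -0.85 ± 0.16 (limma, adjusted p = 8.43e-04). Of the 5 tested probes for enzyme crystallins and other genes named after crystallins none was lower and 2 were higher, Cryz (a quinone reductase) by 0.26 and Cryzl1 by 0.16 (limma, adjusted p = 0.0164 and 0.0186). Of 9 retinal progenitor markers 1 was higher and none lower (limma). Of 11 probes for retinal neurons 4 were lower, with Sncg at -0.51, Tubb3 at -0.46 and Pou4f1 at -0.33, and 2 were higher, one probe of Elavl4 by 0.40 and Isl1 by 0.33 (limma, adjusted p = 0.0284 and 0.0408). The other Elavl4 probe stood at -0.33 and was not called. The shares of all tested probes, 18.3% lower and 16.8% higher, apply to these small lists too. No probe of these lists was called in males, where 0.00712% of all tested probes were lower and 0.0142% higher.

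**Figure D4:**
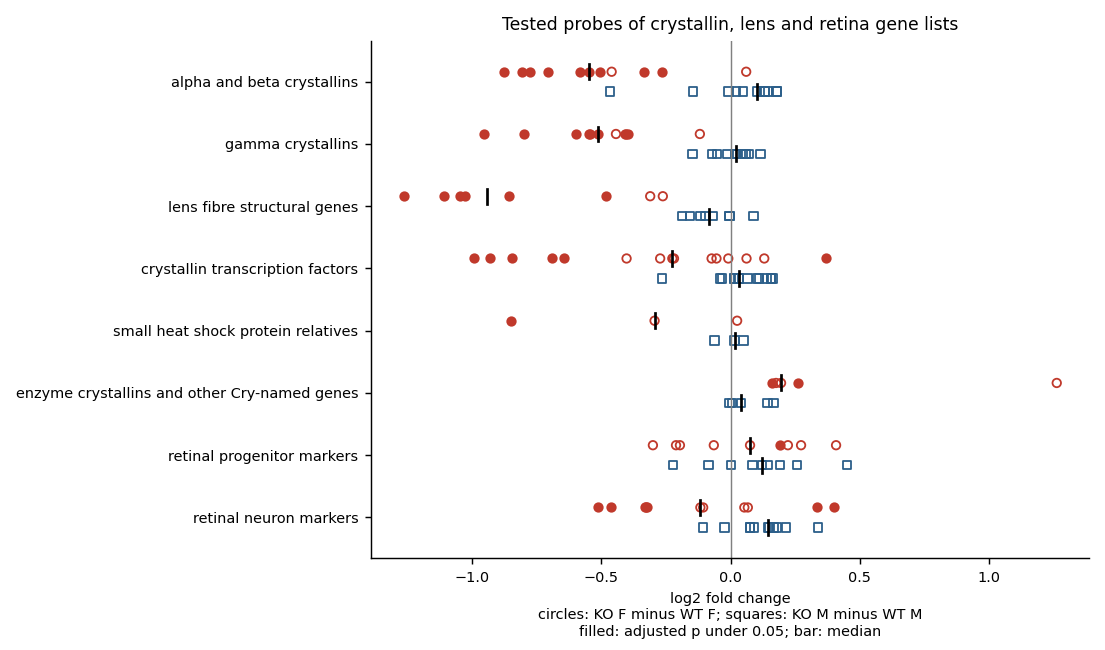
Log2 fold change (x axis) of each tested probe of the gene lists (rows), in Ftx KO against WT females (circles) and in Ftx KO against WT males (squares), filled where the adjusted p from limma was under 0.05, with a bar at the median. The female medians are -0.55 for the alpha and beta crystallins, -0.51 for the gamma crystallins and -0.94 for the lens fibre genes, and the male medians of the 8 lists drawn lie between -0.08 and 0.14.

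The 8 genes outside the members whose signal followed the profile most closely over the 20 eyes were Crygd (r = 0.95, and 0.94 over the 11 Ftx KO females), Bfsp2 (0.95 and 0.91), Cryga (0.95 and 0.93), Crygn (0.95 and 0.88), Bfsp1 (0.94 and 0.95), Pgam2 (0.94 and 0.85), Nrcam (0.94 and 0.93) and Tmem40 (0.94 and 0.85). They were taken as the highest Pearson r with 1 probe a gene, and the order within this narrow range has no weight.

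Markers of tissue around the retina and lens varied strongly among the Ftx KO female eyes. The summed signal of the pigment cell markers was 9285 to 13184 in WT females, 14763 to 20283 in WT males, 9320 to 13526 in Ftx KO males and 6349 to 53513 in Ftx KO females. That of the periocular mesenchyme markers was 3717 to 5397, 5390 to 13977, 4830 to 10052 and 5924 to 51592 in the same order. Skeletal muscle markers summed to 687 to 798, 665 to 983, 684 to 2412 and 654 to 4103. By gene, 8 of 9 pigment and 6 of 9 mesenchyme markers were well above background on all 31 arrays, and 1 of 11 muscle markers was, with Myod1 on none. In females the fit called 2 of 6 tested pigment probes higher (Trpm1 by 1.05, Mitf by 0.73) and the 1 tested mesenchyme probe (Col1a2 by 1.09, limma, adjusted p = 0.0471), with no muscle marker bright enough to test. Among all tested probes 16.8% were higher and 18.3% lower by that rule.

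The crystallin profile was set beside these sums. In 5 of the 11 Ftx KO female eyes (3, 6, 7, 8 and 9) all of the 3 sums lay at or below the highest of the 9 other eyes, and the crystallin profile was -0.46 to -0.15 there (median -0.34). In the 6 eyes above that range (1, 2, 4, 5, 10 and 11) it was -0.60 to -0.33 (median -0.57), so the ranges overlap. With only the 5 eyes kept, a setting added after the data were seen, 5 of 11 probes were lower than in WT females (limma), beside 15.2% of all tested probes lower and 13.2% higher, namely both Cryab probes at -0.79 and -0.62, Cryba4 A_55_P2000034 at -0.62, Cryaa A_55_P2007645 at -0.72 and Crybb1 A_51_P334063 at -0.45. The median log2 fold change was then -0.37, and against Ftx KO males 0 of 11 were called, beside 0.121% of all lower and 0.114% higher. The highest of the 9 other eyes was a male eye for each sum. The mesenchyme sums of the 5 kept eyes, 6167 to 13597, lay above those of every WT female eye, 3717 to 5397. The setting therefore did not match the kept eyes to WT females for these markers. Erythroid markers summed to 553429 to 610282 in WT females, 521976 to 665179 in WT males, 733953 to 1265000 in Ftx KO males and 525715 to 899249 in Ftx KO females, with 3 of 9 probes called higher in females (limma, median log2 fold change 0.03). In males 0 of the 9 were called by limma, while 8 had an unadjusted p under 0.05, all of them higher, with a median log2 fold change of 0.91, beside 1656 of all 14052 probes at such a p. Of the endothelial probes 1 of 3 was lower in females (Kdr, at -1.21, with its other probe at 0.20 and not called), of the macrophage probes 1 of 4 was higher (Cx3cr1 by 0.52), and of the lens epithelium and surface ectoderm probes 0 of 2 were called by limma, with 0 at an unadjusted p under 0.05. The shares of all tested probes in females, 18.3% lower and 16.8% higher, apply to the counts of these markers too. The part of the marker levels in the crystallin values was not tested.

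**Figure D5:**
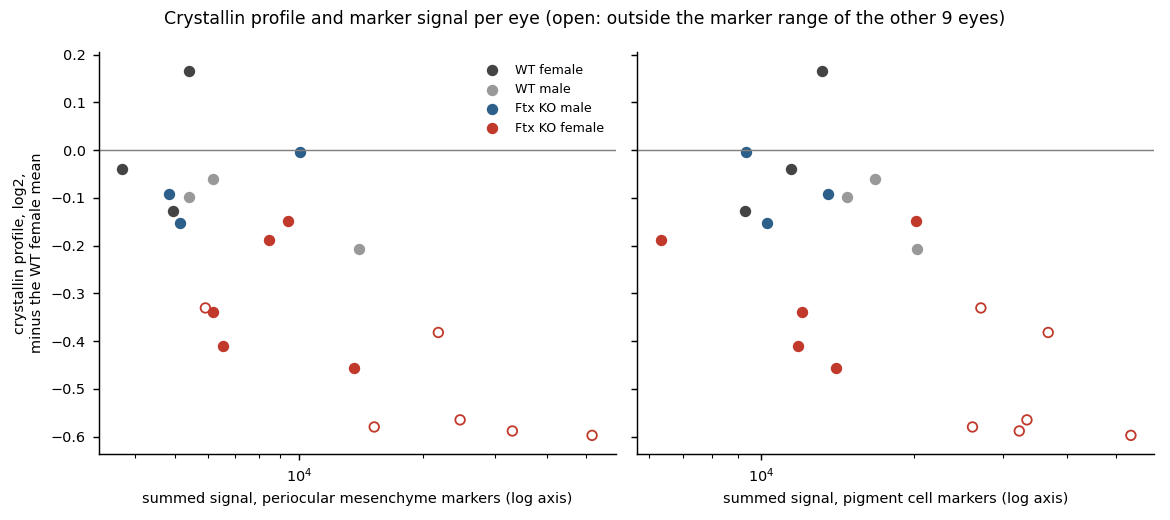
Crystallin profile of each eye (y axis, log2, relative to the WT female mean) against the summed signal of the periocular mesenchyme markers (left x axis) and of the pigment cell markers (right x axis), both on log axes. Open circles are the 6 Ftx KO female eyes above the marker range of the 9 other eyes, with profiles of -0.60 to -0.33, and the filled Ftx KO female points run from -0.46 to -0.15.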

How the data were processed

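Eyes were grouped by the labels. The authors deposited, for each of 62976 spots an array, the background-subtracted intensity and spot flags of Feature Extraction 11.0.1.1, with probe positions on mm9. A table they also deposited holds these intensities rounded and not normalized. Arrays were brought together by quantile-spline normalization, which the study used, rewritten in R 4.3.3 (100 samples, 5 iterations). The scanner's non-uniformity flags removed 120 spots and its population outlier flags 5639. Remaining spots of a probe were averaged, as were the 2 arrays of an eye, on the log2 scale with no pseudocount. The scanner files of 2 arrays hold rounded values. The 14052 probes whose mean signal in WT females exceeded 500 (21 with a missing eye) were tested with limma 3.58.1 (with trend) over all 20 eyes and Benjamini-Hochberg adjustment. The number of eyes limits the precision. Nothing in the labels says that eyes came from separate embryos or litters, so p-values measure the spread between these eyes.

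Members and gene lists were chosen with earlier results of these data known. All member probes are named, and from each other list up to 3 genes with the largest change among called probes. Tested on simulated data, the fit found 187 of 200 probes lowered by 1 on the log2 scale (93.5%) in the female and 183 (91.5%) in the male design. Smaller changes, such as those of the tested members, were not simulated, and the simulated eyes had no slide effect. These shares therefore do not give the power for the members. Alternatives were other scalings, filters, single arrays, slide, scan day and replicate terms, single eyes left out, the methods' t-test and, added after the data were seen, the marker range, single Ftx KO female eyes left out and a filter over all eyes. WT female eye 3 and repeat arrays of the other groups were not analysed here. Results for some genes of the lists are not reported here.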

Additional observations from a re-analysis of the deposited data

Results flagged for a closer look

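For Cryab probe A_55_P2007656, all 11 Ftx KO female eyes lay below the WT female mean and all 3 Ftx KO male eyes above the WT male mean. The difference between the 2 effects was -0.88 on the log2 scale and did not pass the threshold (limma, adjusted p = 0.148). The probe was flagged for this pattern of eyes, and the share of all tested probes with the pattern was not counted. A rise in males was not established, as the change there was 0.18 ± 0.15 (limma, adjusted p = 0.687) and the eyes of the 2 male groups overlapped. The other Cryab probe had a negative estimate in both sexes, at -0.87 in females and -0.15 in males.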

How the results depend on the processing

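The number of member probes called lower in females, 9 of 11, was 6 to 10 under most settings. It was 5 with the series table (which moved the all-probe median to 0.25 and the split of all calls from 2566 lower and 2362 higher to 176 and 2568, with the members' median at -0.42), 5 and 4 with the methods' t-test by their criteria and after Benjamini-Hochberg adjustment, and 5 with only the eyes within marker range. It was 0 with the slide or the scan day as a term (10 and 11 probes lower among all) and 6 with the slide as a random block. Leaving out 1 eye gave 5 (without WT female eye 4) to 10. Cryba4 A_55_P2027831 changed sign with scan day as a term, to 0.16. The males' 0 and the difference's 0 became 1 and 7 by the methods' fold and unadjusted p criteria with limma. The 3 probes lower in Ftx KO females than in Ftx KO males became 8 by those criteria, 7 and 1 by the t-test, 1 with the slide as a random block, and 0 with the series table, the slide, the scan day, the replicate block or the marker range, and 0 to 8 with 1 eye left out. The median profile of Ftx KO females, -0.41, was -0.59 under 75th percentile scaling. The causes were not tested.

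Replicate numbers did not pair the eyes, since the deviations of same-numbered WT and Ftx KO females correlated at -0.22, 0.14 and -0.06, and those of males at -0.17, -0.06 and -0.03. With the replicate block 8 probes were lower in females and 0 were called in males, in the difference and between WT sexes. Of 451 single-probe settings in females 386 kept their direction and side of the threshold. Signal limits Crybb2, whose probes were under the filter and were tested with no filter.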
